A study of Homo sapiens with 3 samples.

Results

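The small RNA silencing machinery was followed through 10 genes, namely the Argonautes AGO1, AGO2, AGO3 and AGO4, the RNase III enzymes DICER1 and DROSHA, the Dicer partners TARBP2 and PRKRA, and TSN and TSNAX, whose products form the translin complex. They were chosen by gene symbol, all 10 were on the array under 14 probes, and all 10 passed the signal filter that kept 10200 of 20399 named genes. The cells were LNCaP, a human prostate cancer line that responds to androgen, and their messenger RNA was measured after siRNA knockdown (KD) of SHOT-RNAs, which are tRNA fragments of hormone-responsive cancer cells. The groups were 5'-Lys KD (siRNA against the 5' fragment of the lysine tRNA, 20 nM), 5'-Asp KD (5' fragment of the aspartate tRNA, 20 nM) and 3'-Asp KD (3' fragment of the aspartate tRNA, 10 nM), each against control cells given an siRNA to Renilla luciferase (R-Luc). All cells, controls included, had thus been transfected with an siRNA, and the harvest followed at 72 h. A two-colour array carried 1 knockdown and its control, which gave 3 arrays with 1 sample a group and allowed no test and no error between cultures.

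These genes act in sequence. DROSHA cuts primary microRNA transcripts in the nucleus, and DICER1, with the double-stranded RNA-binding proteins TARBP2 (TRBP) or PRKRA (PACT), cuts the exported hairpins into duplexes. An Argonaute takes up the duplex and keeps the guide strand, and AGO2 is the family member best known for cutting a fully matched target. The translin complex (C3PO) is an endonuclease that removes the nicked passenger strand, and in the fungus Neurospora it also trims tRNA precursors. Synthetic siRNAs enter this route at the Argonautes, so the same machinery served every transfection here.

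Signals are the deposited intensities. A log2 ratio is Cy3 over Cy5 of a gene, averaged over its probes and centred on the array's median over the 10200 measured genes. By the dye labels Cy3 held the knockdown and Cy5 the control on every array. The column names say the same for the 5'-Lys array but call the Cy3 column the control on the 5'-Asp and 3'-Asp arrays, so the direction on these, taken here from the dyes, is not settled. The 10 spike-in probes had log2 ratios from -2.81 to 3.25, and no probe's ratio differed by more than 0.50 between arrays, so the first column held the same dye throughout. By the column names, every sign given below for the Asp knockdowns would be the opposite. With 1 dye orientation, a probe's own dye effect and a difference between the RNAs cannot be told apart within an array. The median SD of a gene's Cy5 signal over the 3 arrays, relative to the column's median of measured genes, was 0.12 on the log2 scale, with a 95th percentile of 0.34. If the column names are right, Cy5 held the knockdown on both Asp arrays. This SD, and any mean of the Cy5 signals taken as control, would then mix control and knockdown. All 8 luminal prostate markers analysed, among them KLK3 (signals of 2868 to 12016) and HOXB13, were measured, and the basal markers KRT5, KRT14 and TP63 stayed at 12.4 or below.

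The translin subunit TSN was lower on the 5'-Asp array, and DICER1 was higher on every array. No other gene of the 10 was 1.5-fold apart from its control on any array. On the 5'-Lys array 1 of 10 was at least 1.5-fold away from 0 in either direction, against 11.4% of all measured genes (4.49% higher and 6.95% lower). On the 5'-Asp array it was 2 of 10 against 7.89% (3.54% higher and 4.35% lower), and on the 3'-Asp array 1 of 10 against 4.86% (2.3% higher and 2.56% lower). The median log2 ratio of the 10 was 0.00, 0.07 and 0.22 on these arrays, against 0 for all measured genes by construction. The 3'-Asp median was 0.0820 with the signal filter at the 75th percentile, which leaves out AGO4, and -0.000248 with the brightest probe of each gene, and the 5'-Asp median lay between -0.01 and 0.11 under other settings, so neither median has a settled distance from 0. The counts rest on too few genes to set them apart from these shares. The plot of signals shows the 14 probes, and the plot of ratios the 10 genes.

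**Figure D1:**
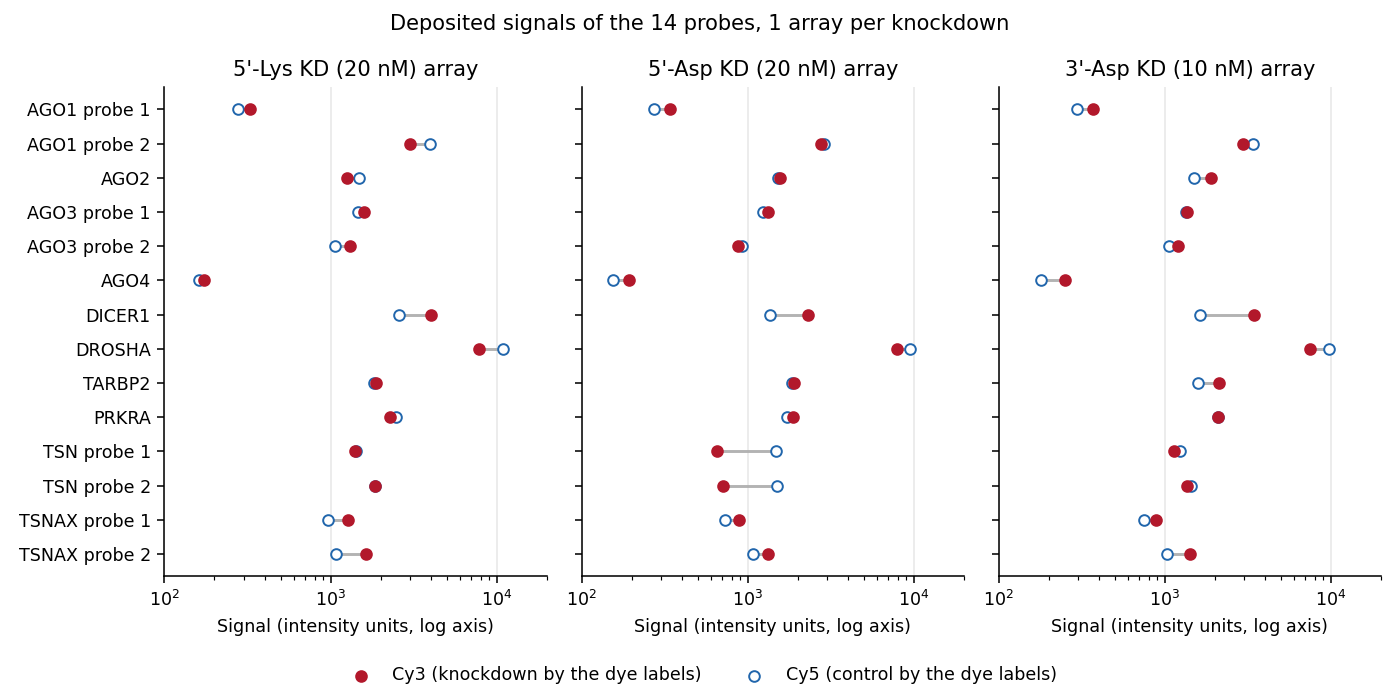
Deposited signals (log axis, intensity units) of the 14 probes on the 5'-Lys, the 5'-Asp and the 3'-Asp array, with filled points for Cy3 (knockdown by the dye labels) and open points for Cy5 (control), 1 array per knockdown. The widest gaps are those of both TSN probes on the 5'-Asp array, with Cy3 lower, and of DICER1 on the 3'-Asp array, with Cy3 higher.

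TSN encodes translin, the RNA-binding subunit of C3PO. Its first probe (A_23_P28105) had 1395 with 5'-Lys KD against 1425 in its control, 652 with 5'-Asp KD against 1481 in its control, and 1132 with 3'-Asp KD against 1241 in its control. The second probe (A_24_P242820) had 1861 with 5'-Lys KD against 1849 in its control, 710 with 5'-Asp KD against 1508 in its control, and 1357 with 3'-Asp KD against 1444 in its control. The 5'-Asp Cy3 signal was thus low on both probes, and the 5 other signals of each probe lay close together. The log2 ratio of TSN was -1.15 with 5'-Asp KD (2.22-fold lower, SD of 0.07 between the probes), the 22nd lowest ratio of 10200. With 5'-Lys KD and 3'-Asp KD it was -0.03 and -0.11. Of all measured genes 0.529% were at least 2-fold lower on the 5'-Asp array. Among 3086 genes with several probes, 4 (0.13%), TSN included, had every probe at least 2-fold lower there. This count was made for this array, direction and size alone, where TSN already stood out, so it only describes TSN.

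The position of TSN among the 6 signal columns does not depend on which dye held the control. Relative to the median of measured genes of each column, the log2 Cy3 signal was 0.57 with 5'-Lys KD, -0.44 with 5'-Asp KD and 0.37 with 3'-Asp KD, and the log2 Cy5 signals were 0.60, 0.73 and 0.50 in the controls of these arrays. The 5'-Asp Cy3 column lay 0.81 below the next lowest, or 1.76-fold. Of measured genes 0.608% had this column at least 1.5-fold below all others, and TSN was the 1 member among them. If the Cy3 column of the 5'-Asp array were the control, as its name says, the control level of TSN would be the lone low value. With 6 other ways of processing that could move the value and that keep the dye direction, the 5'-Asp ratio lay between -1.24 (centred on all named genes) and -1.04 (against the mean Cy5 signal of the 3 arrays).

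TSNAX encodes the partner subunit translin-associated factor X, which carries the catalytic site of C3PO. Its first probe had 1268 with 5'-Lys KD against 968 in its control, 890 with 5'-Asp KD against 725 in its control, and 890 with 3'-Asp KD against 745 in its control. The second had 1623 with 5'-Lys KD against 1077 in its control, 1316 with 5'-Asp KD against 1079 in its control, and 1424 with 3'-Asp KD against 1035 in its control. Every Cy3 signal was above its Cy5 partner, by less than 1.5-fold as the mean of the probes, and after scaling every Cy3 signal lay above every Cy5 signal, as in 15.6% of measured genes. The log2 ratios were 0.47, 0.27 and 0.36 on the 5'-Lys, the 5'-Asp and the 3'-Asp array, with SDs between the probes of 0.14, 0.01 and 0.14. On the 5'-Asp array the subunits therefore stood on opposite sides of 0, at -1.15 for TSN and 0.27 for TSNAX.

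The promoters of the translin genes are shown because TSN and TSNAX differed on the 5'-Asp array although their products form one complex. The sequences are RefSeq windows of 300 bases (250 before the gene's start and 50 after it, GRCh38.p14), TSN at chr2:121755401-121755700 (+) and TSNAX at chr1:231528419-231528718 (+). Capitals mark 5 short motifs searched on both strands, which are the TATA element TATAAA, the motif known as the CAAT box (CCAAT), the GC box GGGCGG, the ETS-type core CCGGAAG and the E-box CACGTG. No marked motif overlapped another.
TSN: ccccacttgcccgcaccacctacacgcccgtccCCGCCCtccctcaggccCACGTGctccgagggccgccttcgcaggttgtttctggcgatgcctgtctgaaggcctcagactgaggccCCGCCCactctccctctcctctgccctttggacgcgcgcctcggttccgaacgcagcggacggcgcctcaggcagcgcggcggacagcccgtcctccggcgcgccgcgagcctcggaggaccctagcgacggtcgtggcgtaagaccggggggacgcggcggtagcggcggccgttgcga
TSNAX: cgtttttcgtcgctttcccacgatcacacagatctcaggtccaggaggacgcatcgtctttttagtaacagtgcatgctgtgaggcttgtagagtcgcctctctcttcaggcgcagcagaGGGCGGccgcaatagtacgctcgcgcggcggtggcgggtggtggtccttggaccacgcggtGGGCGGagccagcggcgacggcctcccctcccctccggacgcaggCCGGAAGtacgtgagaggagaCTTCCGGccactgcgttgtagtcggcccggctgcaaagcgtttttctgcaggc
TSN held 2 GC boxes and 1 E-box. TSNAX held 2 GC boxes and 2 ETS-type cores. Neither window had a TATA element or a CAAT box. Among 35116 RefSeq promoters of this length, 45.0% had the GC box, 10.3% the ETS-type core and 7.26% the E-box. The windows held 41 CpG for TSN and 31 for TSNAX, against a median of 14 over all promoters. A match is a description of letters and no evidence of binding.

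**Figure D2:**
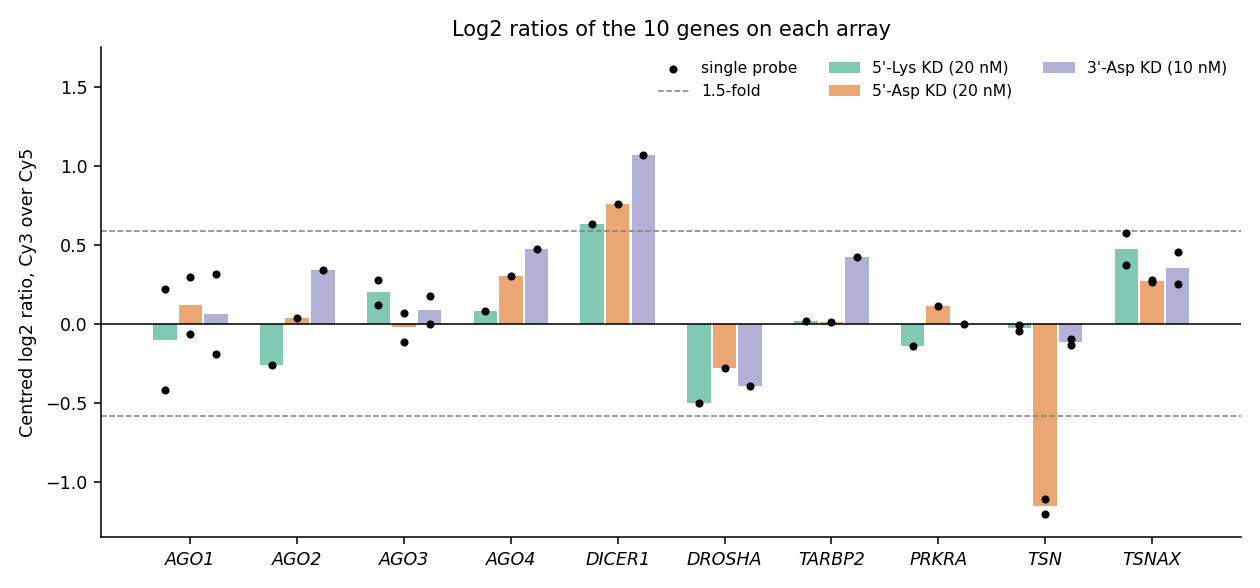
Centred log2 ratios, Cy3 over Cy5 (knockdown over control by the dye labels), of the 10 genes on the 5'-Lys, the 5'-Asp and the 3'-Asp array. Bars are gene means, black points single probes and dashed lines 1.5-fold, and the bars beyond them are DICER1 on all 3 arrays and TSN on the 5'-Asp array (-1.15).

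DICER1, the cytoplasmic RNase III that makes microRNA and siRNA duplexes, had a single probe, tied by the platform annotation to 1 of 33 curated RefSeq transcripts, so other isoforms may not be covered. Its signals were 4025 with 5'-Lys KD against 2565 in its control, 2319 with 5'-Asp KD against 1351 in its control, and 3436 with 3'-Asp KD against 1636 in its control. The Cy3 signal was the higher on each array. After scaling, every Cy3 signal of DICER1 lay above every Cy5 signal, as in 15.6% of measured genes. The gap was narrow, with the lowest scaled log2 Cy3 signal at 1.32 and the highest Cy5 signal at 1.26. The log2 ratios of DICER1 were 0.63 (1.55-fold), 0.76 (1.69-fold) and 1.07 (2.10-fold). Of all measured genes 0.225% were at least 2-fold higher on the 3'-Asp array. The ratios ranked 362nd, 141st and 13th from the highest among 10200 genes on the 5'-Lys, the 5'-Asp and the 3'-Asp array. By the dye labels 84 measured genes (0.824%), DICER1 included, were at least 1.5-fold higher on all arrays. By the column names, which turn DICER1 to -0.76 and -1.07 on the Asp arrays, this held for 0 of 10200 genes. Both counts were made only for the direction and size that DICER1 already showed, so they only describe DICER1. With 1 dye orientation, a dye effect of the probe cannot be told apart from this pattern.

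DICER1 had a Cy5 signal, its control by the dye labels, that moved between arrays. Its log2 Cy5 signal relative to the median of measured genes was 1.26, 0.58 and 0.79, an SD of 0.35, just past the 95th percentile of 0.34. Its Cy3 signals, at 1.89, 1.32 and 1.84, followed a like order. Against the mean Cy5 signal over the 3 arrays the ratios became 1.03, 0.44 and 0.99, so the 1.5-fold call ended on the 5'-Asp array. On the 5'-Lys array it ended with a ratio of 0.55 when all named genes were used for centring, and likewise with no signal filter. The single probe, the shared dye orientation and the moving Cy5 signal leave the size of the DICER1 difference uncertain. DICER1-AS1, a non-coding gene read from the opposite strand and named after its values were seen, had 0.04, -0.15 and -0.22.

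DROSHA, the nuclear RNase III of the Microprocessor, was lower than its control on each array, within 1.5-fold. Its signals were 7815 with 5'-Lys KD against 10929 in its control, 7863 with 5'-Asp KD against 9421 in its control, and 7449 with 3'-Asp KD against 9780 in its control. The log2 ratios were -0.50, -0.28 and -0.40. The Cy5 signal of DROSHA was among the steadiest of the 10 genes, with an SD of 0.02 over the arrays. After scaling, every Cy3 signal lay below every Cy5 signal, as in 16.7% of measured genes, and 27.7% had Cy3 over Cy5 below 0 on all arrays. A lower ratio was found for 10.0% of measured genes with 5'-Lys KD, 17.9% with 5'-Asp KD and 8.22% with 3'-Asp KD.

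The promoters of the RNase III genes are shown because DICER1 and DROSHA stood on opposite sides of 0 on every array. DICER1 has 5 starts in the RefSeq table. The window printed is chr14:95157480-95157779 (-), which shares 258 bases with the window of DICER1-AS1 on the other strand, and DROSHA lies at chr5:31532044-31532343 (-), both in GRCh38.p14 with the same motifs in capitals.
DICER1: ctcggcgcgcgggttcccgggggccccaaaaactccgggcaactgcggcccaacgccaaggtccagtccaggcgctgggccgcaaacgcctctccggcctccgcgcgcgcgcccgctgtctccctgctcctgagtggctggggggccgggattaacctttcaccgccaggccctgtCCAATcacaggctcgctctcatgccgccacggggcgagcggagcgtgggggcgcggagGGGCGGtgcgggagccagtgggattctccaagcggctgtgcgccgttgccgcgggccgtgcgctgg
DROSHA: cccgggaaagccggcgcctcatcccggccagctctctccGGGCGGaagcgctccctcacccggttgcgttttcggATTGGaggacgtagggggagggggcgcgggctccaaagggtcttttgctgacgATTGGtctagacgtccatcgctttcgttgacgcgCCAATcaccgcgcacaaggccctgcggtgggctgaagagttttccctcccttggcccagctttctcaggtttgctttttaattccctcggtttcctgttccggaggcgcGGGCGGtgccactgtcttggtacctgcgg
DICER1 held 1 CAAT box and 1 GC box, and DROSHA 3 CAAT boxes and 2 GC boxes, counted on both strands. The CAAT box was present in 34.6% of all promoters of this length. Neither window had the TATA element, which 11.5% of promoters held, nor the ETS-type core or the E-box. The CpG counts were 37 for DICER1 and 28 for DROSHA.

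**Figure D3:**
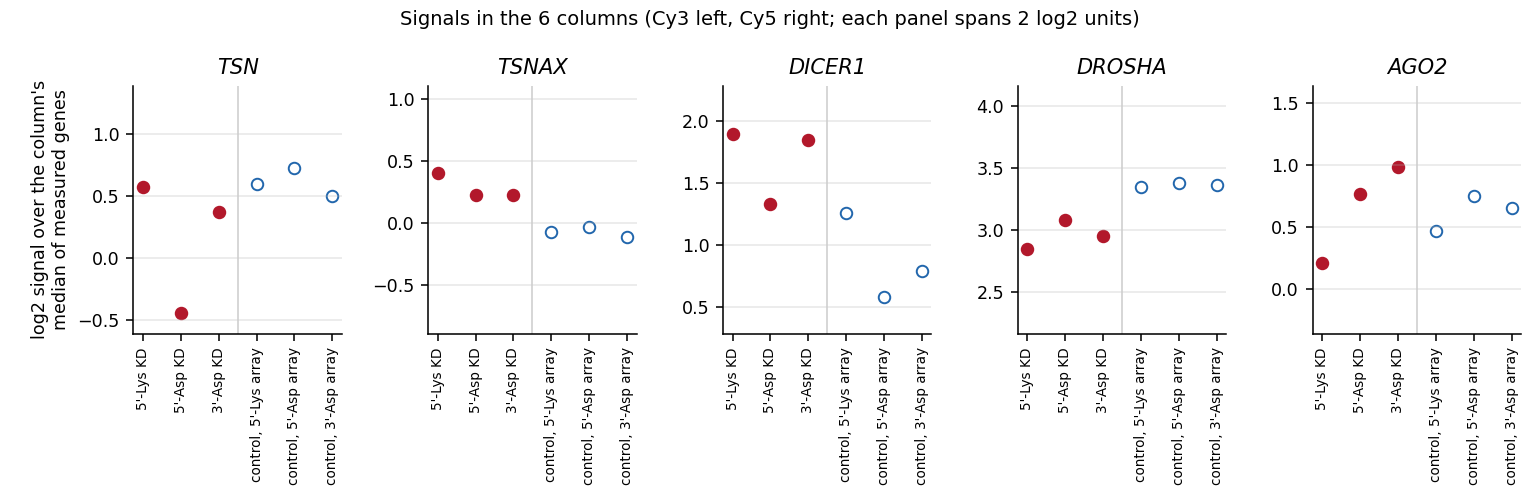
Log2 signal of TSN, TSNAX, DICER1, DROSHA and AGO2 relative to each column's median of measured genes, with the 3 Cy3 columns (knockdowns by the dye labels) left of the 3 Cy5 columns (controls). TSN is low in the 5'-Asp Cy3 column alone (-0.44), while Cy3 and Cy5 do not overlap for DICER1, DROSHA and TSNAX. Of all measured genes, 15.6% had every Cy3 signal above every Cy5 signal and 16.7% had every Cy3 signal below.

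Among the Argonautes no gene reached 1.5-fold. AGO2, which carries the slicing activity, had 1252 with 5'-Lys KD against 1482 in its control, 1572 with 5'-Asp KD against 1514 in its control, and 1891 with 3'-Asp KD against 1489 in its control. The Cy5 signals were nearly level as deposited, while Cy3 was lowest with 5'-Lys KD and highest with 3'-Asp KD. Relative to each column's median of measured genes, log2 Cy3 was 0.21, 0.76 and 0.98 and log2 Cy5 0.47, 0.74 and 0.65. After this scaling Cy5 was not level, and it too was lowest on the 5'-Lys array. Against the mean Cy5 signal the ratios became -0.40, 0.14 and 0.38. The log2 ratios were -0.26, 0.04 and 0.34, a range of 0.60, which among the 10 genes was smaller only than that of TSN (1.13). The scaled Cy3 and Cy5 signals had SDs of 0.40 and 0.14 over the arrays.

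AGO1, AGO3 and AGO4 are neighbours on chromosome 1. AGO4, dim at 172 with 5'-Lys KD against 161 in its control, had 192 with 5'-Asp KD against 154 in its control and 251 with 3'-Asp KD against 181 in its control. Its ratios of 0.08, 0.30 and 0.47 were all above 0, and its mean signal of 183 was near the filter of 131. Against the mean Cy5 signal they became -0.13, 0.36 and 0.62, so that the value for 3'-Asp KD passed 1.5-fold and that for 5'-Lys KD changed sign.

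The AGO1 probes disagreed. The first had 325 with 5'-Lys KD against 276 in its control, 339 with 5'-Asp KD against 272 in its control, and 367 with 3'-Asp KD against 295 in its control. The second had 2984 with 5'-Lys KD against 3948 in its control, 2774 with 5'-Asp KD against 2861 in its control, and 2959 with 3'-Asp KD against 3367 in its control. The first probe thus gave log2 ratios of 0.22, 0.30 and 0.31 and the second -0.42, -0.06 and -0.19, so the means of -0.10, 0.12 and 0.06 describe neither. No direction is given for AGO1.

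AGO3 was within 1.5-fold of its control on both probes. The first had 1594 with 5'-Lys KD against 1451 in its control, 1322 with 5'-Asp KD against 1242 in its control, and 1352 with 3'-Asp KD against 1347 in its control. The second had 1305 with 5'-Lys KD against 1063 in its control, 869 with 5'-Asp KD against 928 in its control, and 1199 with 3'-Asp KD against 1059 in its control. The first probe gave log2 ratios of 0.12, 0.07 and 0.00 and the second 0.28, -0.11 and 0.18, with opposite signs on the 5'-Asp array. The gene means were 0.20, -0.02 and 0.09.

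The Dicer partners lay within 1.5-fold of their controls on every array. TARBP2, which hands the duplex from Dicer to Argonaute, had 1874 with 5'-Lys KD against 1828 in its control, 1889 with 5'-Asp KD against 1850 in its control, and 2121 with 3'-Asp KD against 1580 in its control. Its log2 ratios were 0.02, 0.01 and 0.42. PRKRA, the activator of the kinase PKR as well as a Dicer partner, had 2267 with 5'-Lys KD against 2472 in its control, 1879 with 5'-Asp KD against 1718 in its control, and 2089 with 3'-Asp KD against 2082 in its control. Its ratios of -0.14, 0.11 and 0.00 showed no direction common to the arrays. The SD of the Cy5 signal over the arrays was 0.16 for TARBP2 and 0.15 for PRKRA, and each PRKRA ratio was smaller in size. This SD is a spread between arrays and gives no error for a ratio within an array.

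**Figure D4:**
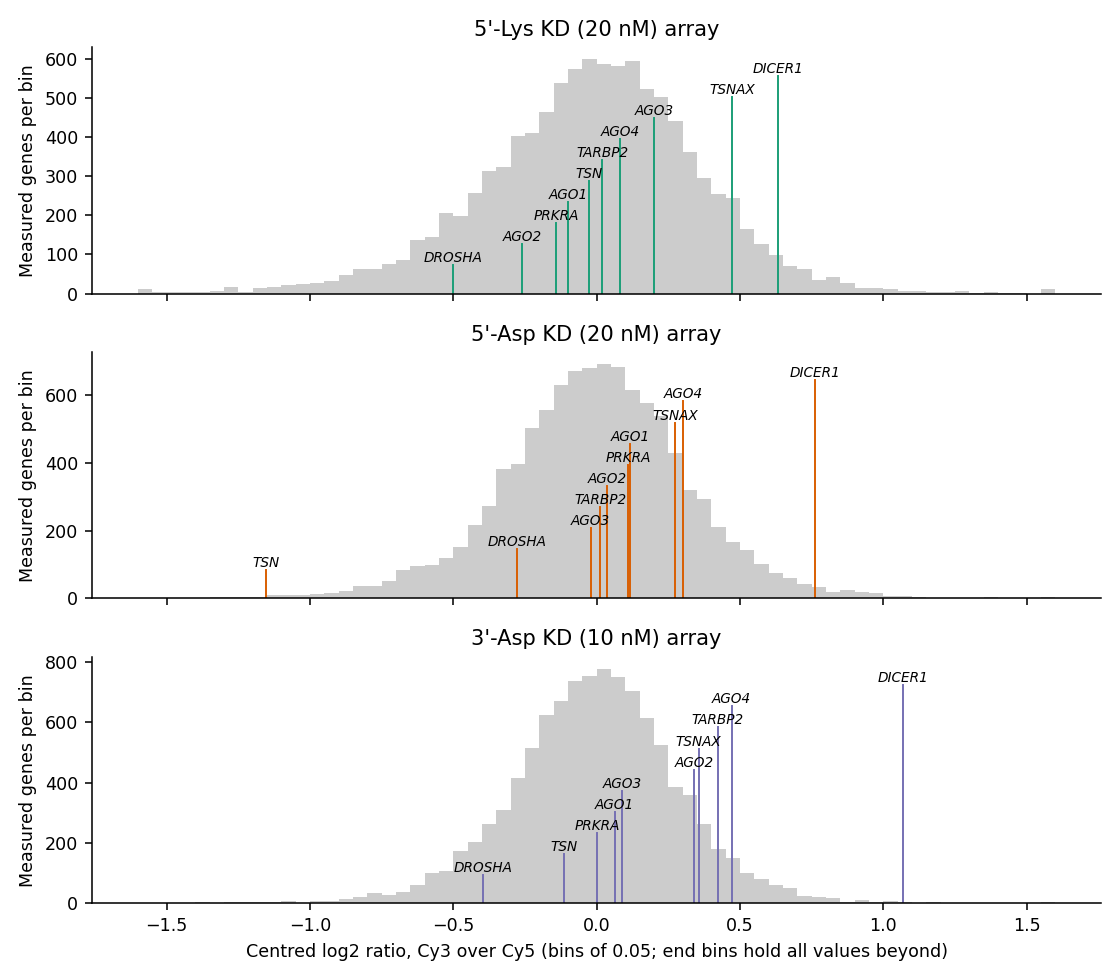
Number of measured genes (grey, of 10200) per bin of centred log2 ratio, Cy3 over Cy5, on each array, with a coloured line at each of the 10 genes (line heights only separate the names). TSN lies in the lower tail on the 5'-Asp array and DICER1 in the upper tail on the 3'-Asp array (1.07), and the other genes fall within 1.5-fold of 0.

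The 5'-Lys and 5'-Asp knockdowns used the same dose and time, so their ratios were subtracted gene by gene. With the direction of the dye labels this also removes a dye effect common to both arrays. The difference for TSN, 5'-Lys KD minus 5'-Asp KD, was 1.13 on the log2 scale (2.18-fold), the 37th highest of 10200. The 9 other differences lay between -0.30 (AGO2) and 0.22 (AGO3). At least 1.5-fold apart was thus 1 of 10 genes, against 8.25% of all measured genes. DICER1 had a difference of -0.13, DROSHA of -0.22 and TSNAX of 0.20. With the 5'-Asp array turned as its column names say, the subtraction no longer removes such a dye effect, and these became 1.39 for DICER1, -0.78 for DROSHA and 0.75 for TSNAX, with -1.18 for TSN. At least 1.5-fold apart would then be 4 of 10 genes, against 31.8% of all measured genes, so the count of differing genes depends on the unsettled direction. The 3'-Asp siRNA was given at the lower dose, and its values are only set beside the others.

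Genes that act before and after these proteins were described from 8 lists. Each list count below stands beside the shares of all measured genes at least 1.5-fold apart. These were 11.4% on the 5'-Lys, 7.89% on the 5'-Asp and 4.86% on the 3'-Asp array. In primary microRNA processing and export, 0 of 8 measured genes were 1.5-fold apart on any array, and the medians were -0.05, 0.04 and -0.15. DGCR8, the RNA-binding partner of DROSHA, had 0.23, 0.14 and 0.02, and the hairpin exporter XPO5 -0.18, 0.07 and -0.32 on the 5'-Lys, the 5'-Asp and the 3'-Asp array, both named here after their values were seen. The lowest value of this list was that of RAN, the GTPase that drives export, at -0.57 with 5'-Asp KD. The count of this list became 1 with 5'-Asp KD when all named genes were used for centring, and 1 with 5'-Lys KD with the brightest probe. DGCR8 did not share the negative ratios of DROSHA, but other genes of the list did. NCBP1 had -0.45, -0.31 and -0.35, NCBP2 -0.05, -0.19 and -0.17, and RAN -0.27, -0.57 and -0.32. Of all measured genes 27.7% were below 0 on all arrays. DDX17, like DGCR8, was above 0 on every array, and DDX5, SRRT and XPO5 had mixed signs.

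Of 11 chaperones and co-chaperones of Argonaute loading, FKBP5 alone was 1.5-fold apart. FKBP5, an HSP90 co-chaperone also known as an androgen-induced gene, had 366 with 5'-Lys KD against 749 in its control (-1.05) and 436 with 5'-Asp KD against 690 in its control (-0.68). Its Cy5 signal moved between arrays, with an SD of 0.40, past the 95th percentile of 0.34, and against the mean Cy5 signal the 5'-Asp ratio became -0.37, which ended that call. The medians of the list were -0.08, -0.19 and 0.00, and HSP90AB1, a main HSP90 gene named after its values were seen, had -0.29, -0.35 and -0.12.

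GW182 proteins bind Argonautes and bring in the decay enzymes. Of 9 measured genes in their list, 1 was higher and 1 lower with 3'-Asp KD, against 4.86% of all measured genes in either direction. On the 5'-Lys and 5'-Asp arrays 0 were 1.5-fold apart, against 11.4% and 7.89%. TNRC6B had 1829 with 3'-Asp KD against 1147 in its control (0.67) and TNRC6C 178 with 3'-Asp KD against 275 in its control (-0.63), so the paralogues stood on opposite sides of 0. The TNRC6C call ended with normexp background correction (-0.49). TNRC6B had 0.49 and 0.36 on the 5'-Lys and 5'-Asp arrays.

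Of these lists, deadenylation was the longest and also had the most genes 1.5-fold apart. The shares of all measured genes were 11.4%, 7.89% and 4.86% on the 5'-Lys, the 5'-Asp and the 3'-Asp array. Of 14 measured genes, 1 was higher and 2 lower with 5'-Lys KD, 0 higher and 1 lower with 5'-Asp KD, and 1 higher and 1 lower with 3'-Asp KD. BTG1, an antiproliferative protein that binds the CCR4-NOT deadenylase, had 2212 with 5'-Lys KD against 4357 in its control (-0.99) and 2069 with 3'-Asp KD against 3927 in its control (-0.93), but -0.16 with 5'-Asp KD. The CCR4-NOT subunit CNOT11 had 0.59 with 5'-Lys KD and 0.72 with 3'-Asp KD, and the poly(A)-binding protein gene PABPC1 -0.64 with 5'-Lys KD. CNOT2 had -0.59 with 5'-Asp KD, but its 2 probes lay far apart (SD of 1.10). Several of these calls lay at the threshold of 0.585. That of CNOT11 with 5'-Lys KD ended under each of the 5 other settings that kept the gene (0.45 to 0.58), and that of PABPC1 against the mean Cy5 signal (-0.56). That of CNOT2 ended with loess (-0.53), with normexp (-0.01) and with the brightest probe, where its sign turned (0.18). The calls of BTG1 on both arrays held under all 6 settings, and that of CNOT11 with 3'-Asp KD under the 5 that kept the gene. The list medians of -0.07, -0.10 and -0.06 were close to 0.

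Of 13 decapping and decay genes, 1 was lower with 5'-Lys KD and 0 were 1.5-fold apart on the other arrays. It was XRN1, the 5'-to-3' exonuclease, with 405 in 5'-Lys KD against 696 in its control (-0.80). Among 12 measured genes of small RNA end modification and turnover, ZC3H12A, an endonuclease that can cut microRNA hairpins, was the 1 called, at 1071 with 3'-Asp KD against 639 in its control (0.74). It had 0.29 with 5'-Lys KD and 0.55 with 5'-Asp KD.

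The 7 measured genes of RNA editing and other double-stranded RNA-binding proteins gave 1 higher with 5'-Lys KD and 1 lower with 3'-Asp KD. These were ILF2 (1.14) and the editing enzyme gene ADARB1 (-0.71), and the 2 probes of each lay far apart (SDs of 1.12 and 1.14). The ILF2 call ended with normexp (0.27) and with the brightest probe (0.34), and that of ADARB1 against the mean Cy5 signal (-0.51). The PIWI genes, whose products bind germline small RNAs, had 0 of 4 measured, with signals of at most 15.2. Counts of single lists moved by at most 2 genes under the 6 settings and were too small to be read against the shares of all genes given above.

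**Figure D5:**
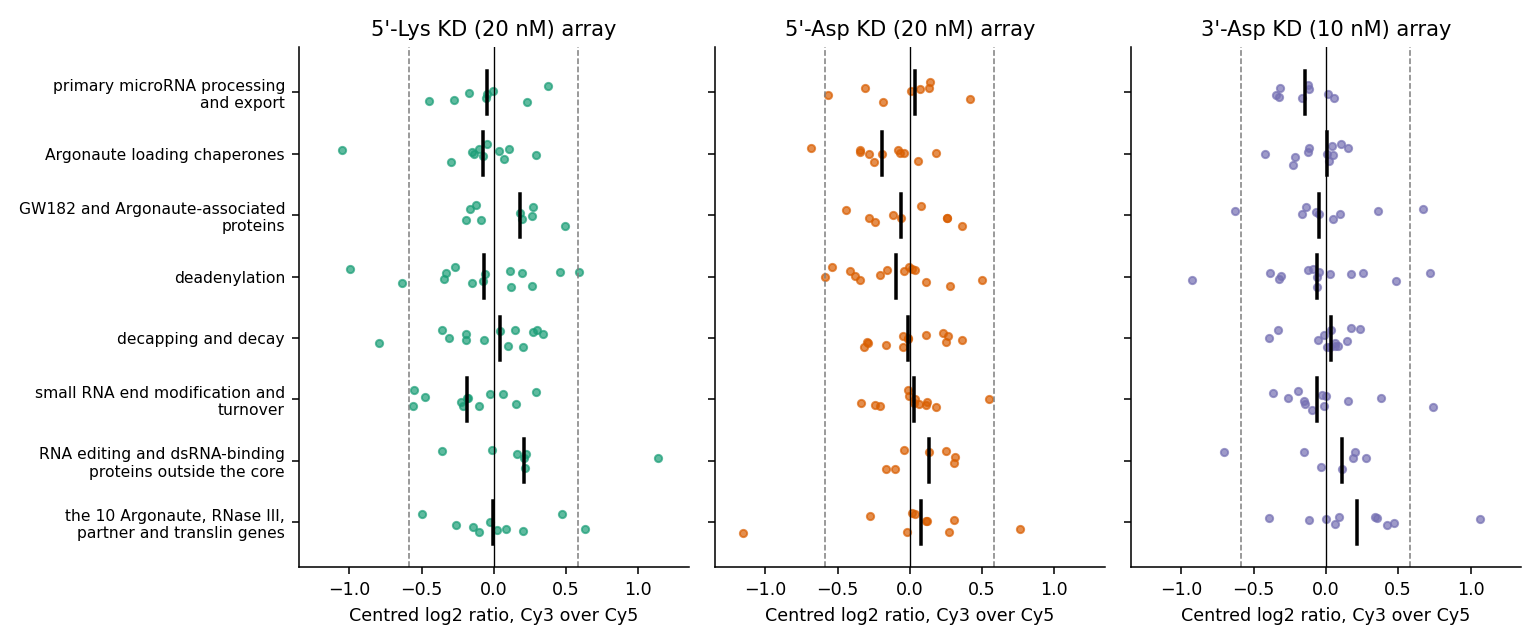
Centred log2 ratios, Cy3 over Cy5, of the measured genes of 7 lists of the small RNA pathway and, in the bottom row, of the 10 genes described, on the 5'-Lys, the 5'-Asp and the 3'-Asp array. Points are genes, black ticks list medians and dashed lines 1.5-fold, and all list medians lie between -0.19 and 0.22.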

How the data were processed

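Each array compared total RNA of 1 knockdown with that of control cells. The deposited intensity tables hold 2 signal columns for 34183 probes, 56 of them control probes, called raw per the file headers. All values were positive, and the Cy3 and Cy5 medians were 94.0 and 95.0 on the 5'-Lys, 70.7 and 70.9 on the 5'-Asp and 79.7 and 80.9 on the 3'-Asp array. The intensities were therefore taken without further correction. The extraction software was not given in the sources used here; detection and saturation flags were not used. The deposited series values were signed folds, equal to Cy3 over Cy5 times 1 constant per array (log2 of -0.02, -0.02 and -0.01), with medians of 1.06, 1.07 and 1.05.

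Symbols came from the platform annotation of 2015. Through RefSeq accessions 25515 probes took current names, 2179 already had one, 354 kept an older symbol and 6079 had none. Probe log2 signals were averaged per gene, and genes at or above the 50th percentile of mean signal (131) were measured. Differences were called at 1.5-fold, with 2-fold beside it. The share of all genes at 2-fold was counted only downward on the 5'-Asp array (TSN) and upward on the 3'-Asp array (DICER1). The alternatives tried were loess within each array and normexp with an offset of 50 (both limma 3.58.1 in R 4.3.3), the deposited folds, the mean Cy5 signal after Aquantile scaling, no filter, the 75th percentile, the brightest probe, centring on all named genes and the column-name direction. All else ran in Python 3.11.15 (pandas 2.3.3, numpy 2.4.6). The main centred ratio was tested on simulated arrays, and the motif search on short made-up sequences.

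The members and lists were chosen with earlier results of these data known. All members were to be named, and in each list the genes at least 1.5-fold apart, up to 3 per direction. The number of arrays limits the precision. Some listed genes were not analysed here.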

Additional observations from a re-analysis of the deposited data

How the results depend on the processing

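With 1 array per knockdown no replicate could be left out. No paired analysis was possible because each group had 1 sample and no result came from a test. By the column names the ratio of TSN with 5'-Asp KD would be 1.15, and those of DICER1 would be -0.76 with 5'-Asp KD and -1.07 with 3'-Asp KD. The medians of the 10 genes would become -0.0736 and -0.216 on these arrays, and the median difference of 5'-Lys KD minus 5'-Asp KD 0.0249, with 4 of 10 genes at least 1.5-fold apart. No other setting run turned the sign of a member at least 1.5-fold apart. The count of members at least 1.5-fold apart with 5'-Lys KD was 0 without the signal filter, with centring on all named genes and at 2-fold. With 5'-Asp KD it was 1 at 2-fold and 1 against the mean Cy5 signal over the 3 arrays, and with 3'-Asp KD 2 against that mean. The 3'-Asp median was 0.0820 with the filter at the 75th percentile and -0.000248 with the brightest probe, and the median difference was -0.0343 against the mean Cy5 signal. For a gene that stays in the data, the deposited folds give the same centred ratio by construction, and no filter the same as centring on all named genes, so 6 settings apart from the direction could move a member's ratio. Of 174 values under these, 146 moved by less than the SD of the gene's Cy5 signal and 28 by more, and 14 changed sign, all of ratios of 0.12 or less in size. The column-name direction turned all 20 Asp values.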

Other observations

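TSN belonged to a small group of genes with 1 column apart from the other 5, and the columns held unequal numbers of such genes. On the 5'-Lys array the Cy3 signal was at least 1.5-fold below all other columns for 153 of 10200 measured genes and the Cy5 signal for 7. On the 5'-Asp array these counts were 62 for Cy3 and 31 for Cy5, and on the 3'-Asp array 30 for Cy3 and 0 for Cy5. At least 1.5-fold above all others were 57, 6 and 15 genes in Cy3 and 5, 5 and 1 genes in Cy5, on the 5'-Lys, the 5'-Asp and the 3'-Asp array. On each array Cy3, the column that the dye labels give to the knockdown, held the larger number of lone genes. Both Asp arrays bear a Cy3 column named control, and this count does not settle which of the labels is right.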
